A study of Mus musculus with 4 samples.

Results

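The genes Ogn, Mro, Gm30551, Gm34237 and BB365896 are 5 of the 20211 genes counted in all 4 libraries of a single-nucleus study of mouse hippocampus. They were chosen because earlier results of the same counts set their levels in dentate granule nuclei of the wild-type library apart from those of knockout libraries. Their granule ratios to wild type are therefore given as a description, with no test. A granule nucleus was defined by a UMI (unique molecular identifier, the tag that counts 1 captured RNA molecule) of Prox1 together with UMIs of at least 2 of the 5 genes C1ql2, Plk5, Dsp, Trpc6 and Glis3. The rule took 7257 of the 51320 nuclei kept.

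The study compared wild-type mice with knockouts of monoacylglycerol lipase (MAGL, encoded by Mgll), the enzyme that degrades the endocannabinoid 2-arachidonoylglycerol. There was 1 library of hippocampal nuclear RNA for each of 4 genotypes, labelled wild type, total/global MAGL-KO, astrocyte-specific MAGL-KO and neuron-specific MAGL-KO. Strain, age, animals per library, the deleted part of Mgll and the driver of each cell-specific deletion: not given in the sources used here. With 1 library per genotype no difference has a replicate check, and every interval below is a 95% interval for counting error only.

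Granule nuclei numbered 1635 in the wild-type library, 2736 in the library labelled total knockout, 1546 in that labelled astrocyte knockout and 1340 in that labelled neuron knockout. All values below follow this order unless another is stated. Median depth was 8552, 4974.5, 6371 and 7784.5 UMIs per granule nucleus. Between 94.9% and 96.7% of these nuclei lay in clusters that granule markers named. The naming list held Prox1 and the 5 other genes of the rule, so this overlap was partly given in advance. Conversely, the rule took 79.7%, 61.6%, 71.1% and 72.9% of the nuclei of those clusters, and the part of depth in this was not tested. Stxbp6, a granule marker outside the rule but in the naming list, stood between 932 and 976 CPM. Calb1 and Tdo2, further granule markers, were lower in the KO libraries, with Calb1 at 217, 170, 134 and 153 CPM and Tdo2 at 18.8, 13.2, 9.83 and 12.3 CPM. CPM is the UMIs of a gene as parts of the summed UMIs of the nuclei, scaled alike in every library. Mgll stood at 121, 97.9, 138 and 129 CPM in granule nuclei. It was thus below wild type under the total label alone, and with the deleted part unknown this level is no check of a label. The short names total-KO, astrocyte-KO and neuron-KO below therefore stand for the library so labelled, not for a verified genotype. The total-KO library held 3 nuclei called female by Xist among 23625, while the others held nuclei of both sexes, so genotype and sex cannot be told apart there without the values for male nuclei given below. In all, 1580 cell barcodes occurred in more than 1 library, which is 4.01% to 7.01% of the barcodes of each.

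Dentate granule neurons are the principal cells of the dentate gyrus. They receive input from the entorhinal cortex and send mossy fibres to CA3, and the transcription factor Prox1 maintains their identity. They differ along the long axis of the hippocampus and with recent activity, which induces genes such as Arc, Penk and Bdnf. Ogn encodes osteoglycin, a secreted small leucine-rich proteoglycan of the extracellular matrix, and Mro encodes maestro, a protein with HEAT-like repeats. Of the other members, Gm30551 and Gm34237 are annotated as long intergenic RNAs, and BB365896 as an RNA antisense to Fam13a.

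In the mouse annotation GENCODE M21 (GRCm38, the same assembly as the mm10 named in the submitters' processing notes) Ogn spans chr13:49608046-49624501 on the plus strand, inside the span of Cenpp on the minus strand. Gm30551 lies on the minus strand at chr13:103591395-103707633, between Mast4 and Srek1. Gm34237 lies on the plus strand at chr12:11826607-11897726. BB365896 lies on the plus strand at chr6:58965655-59002083, where Fam13a runs on the minus strand.

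The windows of 250 bases before the starts of Ogn and Gm30551 are shown because these members were highest in different large granule clusters. They come from RefSeq on GRCm38.p6, at chr13:49607765-49608014 on the plus strand for Ogn and chr13:103707634-103707883 on the minus strand for Gm30551, 5′ to 3′, with capitals at matches to the motifs searched on both strands.
Ogn: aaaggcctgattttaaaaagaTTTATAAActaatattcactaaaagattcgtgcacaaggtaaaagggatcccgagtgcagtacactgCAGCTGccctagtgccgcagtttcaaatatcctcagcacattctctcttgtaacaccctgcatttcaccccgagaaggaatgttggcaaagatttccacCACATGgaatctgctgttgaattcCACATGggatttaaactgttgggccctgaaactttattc
Gm30551: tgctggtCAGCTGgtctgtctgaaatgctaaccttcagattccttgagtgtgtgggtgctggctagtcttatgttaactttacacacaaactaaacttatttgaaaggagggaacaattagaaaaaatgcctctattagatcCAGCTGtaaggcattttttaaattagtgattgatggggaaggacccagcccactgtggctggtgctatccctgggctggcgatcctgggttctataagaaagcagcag

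The E-box letters CANNTG, which basic helix-loop-helix factors such as those of granule neurons can bind, matched 3 times in the Ogn window and 2 times in the Gm30551 window. Of 32851 promoter windows of this length, 66.2% held the E-box letters. The TATA box letters TATAAA matched 2 times in the Ogn window, on opposite strands with overlap, against 12.4% of windows with any match. The cAMP response element TGACGTCA (in 1.55% of windows) and the AP-1 site TGANTCA (in 6.75%) had no match in either window. These are matches of letters and not measured sites.

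Ogn was lower in granule nuclei of all 3 KO libraries than in wild type. It stood at 21.3 CPM (interval 19.0 to 23.7) from 324 UMIs in wild type, and at 10.1 (8.60 to 11.9), 9.91 (8.20 to 11.9) and 9.55 (7.88 to 11.5) CPM in the others. Against wild type the log2 ratios were -1.07 (-1.36 to -0.79), -1.10 (-1.42 to -0.79) and -1.16 (-1.48 to -0.84). The 3 KO values overlapped each other within their intervals and none overlapped wild type. In male nuclei alone Ogn stood at 25.6, 10.4, 13.2 and 12.6 CPM, so the wild-type library stayed highest. Female nuclei held less Ogn than male nuclei in wild type, 17.8 against 25.6 CPM, a log2 difference of -0.52 (-0.88 to -0.18), and in the astrocyte-KO library, -0.88 (-1.55 to -0.22). In the neuron-KO library the interval of that difference held 0, at -0.47 (-1.08 to 0.12).

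Ogn UMIs were found in fewer nuclei of the KO libraries. At least 1 UMI was found in 13.3%, 4.75%, 6.40% and 5.97% of granule nuclei. Among those, 31.8%, 15.4%, 15.2% and 31.2% had at least 2 UMIs, without matching for depth. In the neuron-KO library this share was 45.2% in male and 12.9% in female nuclei, against 36.1% and 28.9% in wild type. The part of depth in these shares was not tested. The highest nucleus had 9 UMIs in wild type and 4, 4 and 5 in the others. With every nucleus thinned to 3000 UMIs, which left out 31, 286, 26 and 26 shallower nuclei, the shares were 5.24%, 2.33%, 2.96% and 2.66%. The same thinned share in CA1 pyramidal nuclei, with median depths of 11312, 6651, 7960 and 9866 UMIs before thinning, was 0.190%, 0.0479%, 0.372% and 0.0791%.

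Mro, at chr18:73859385-73881333 on the plus strand and overlapping no other annotated gene, went the other way. Its granule level was 6.44 CPM (5.23 to 7.85) in wild type, and 16.5 (14.5 to 18.7), 13.1 (11.1 to 15.3) and 16.3 (14.1 to 18.7) CPM in the KO libraries. The log2 ratios were 1.36 (1.02 to 1.71), 1.02 (0.65 to 1.40) and 1.34 (0.98 to 1.70), with wild type alone at the bottom. Male nuclei gave 6.36, 16.5, 15.0 and 14.1 CPM, the same order of wild type and the rest. Nuclei with more than 1 Mro UMI were few in every library, 11.4%, 9.13%, 12.4% and 11.6% of the positive ones. At this depth more nuclei with Mro and more Mro RNA in each nucleus cannot be told apart. After thinning to 3000 UMIs the shares were 1.37%, 4.49%, 3.22% and 5.17%. The corresponding CA1 shares were 0 of 1051 nuclei in wild type, which allows up to 0.285%, and 0.384%, 0.637% and 0.870% in the others.

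Gm30551 was the scarcest of the higher members in wild type. It stood at 3.35 CPM (2.5 to 4.41) from 51 UMIs there, and at 8.16 (6.79 to 9.74), 9.66 (7.97 to 11.6) and 8.63 (7.05 to 10.5) CPM in the KO libraries. The log2 ratios were 1.28 (0.80 to 1.78), 1.53 (1.04 to 2.03) and 1.37 (0.87 to 1.88). Its UMIs were bunched: only 1.77%, 2.96%, 5.37% and 4.18% of granule nuclei held one, but 48.3%, 29.6%, 24.1% and 39.3% of these held at least 2. In the astrocyte-KO library the female nuclei carried most of the excess. Gm30551 stood at 14.4 CPM in female and 4.99 CPM in male nuclei there, a log2 difference of 1.53 (0.79 to 2.33), whereas that difference was 0.11 (-0.77 to 1.01) in wild type and -0.13 (-0.78 to 0.50) in the neuron-KO library. Among male nuclei the log2 ratios were 1.2 (0.52 to 1.95), 0.54 (-0.42 to 1.5) and 1.51 (0.75 to 2.31), so in the male astrocyte-KO nuclei the interval held 0.

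Gm34237 was set apart by the astrocyte-KO library. Granule nuclei held 4.40 CPM (3.41 to 5.59) in wild type, 8.69 (7.27 to 10.3) in the total-KO, 19.0 (16.6 to 21.6) in the astrocyte-KO and 7.79 (6.29 to 9.55) in the neuron-KO library. Against wild type the log2 ratios were 0.98 (0.55 to 1.43), 2.11 (1.71 to 2.52) and 0.82 (0.36 to 1.30). The astrocyte-KO library also lay above the total-KO one, by 1.13 (0.81 to 1.45), and above the neuron-KO one, whose log2 ratio to it was -1.28 (-1.65 to -0.93). Both sexes showed it, at 20.9 CPM in male and 17 CPM in female nuclei of the astrocyte-KO library. Among male nuclei the neuron-KO ratio to wild type had an interval that held 0, at 0.60 (-0.12 to 1.34).

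BB365896, the antisense RNA, was below wild type in the 3 KO libraries at full depth, while few of its UMIs remained after thinning. It stood at 5.32 CPM (4.23 to 6.61) in wild type, and at 1.84 (1.23 to 2.66), 3.11 (2.19 to 4.28) and 3.52 (2.54 to 4.76) CPM in the others. The log2 ratios were -1.53 (-2.20 to -0.89), -0.78 (-1.38 to -0.20) and -0.60 (-1.17 to -0.04). Nearly every positive nucleus held a single UMI, and no nucleus of the total-KO library held 2. Thinned to 3000 UMIs, the shares of positive nuclei were 1.31%, 0.694%, 1.12% and 1.37%, and the level ratios became -0.92 (-1.93 to 0.08), -0.23 (-1.24 to 0.77) and 0.14 (-0.83 to 1.11). All 3 intervals then held 0, with 21, 17, 17 and 19 UMIs left in the 4 libraries. A part of depth in this was not tested. At 1000 UMIs per nucleus, positive nuclei made up 0.796% (0.425 to 1.36) in wild type, then 0.110% (0.0226 to 0.320), 0.453% (0.182 to 0.931) and 0.448% (0.165 to 0.973), so the total-KO share, from 3 nuclei, lay below wild type and the others overlapped it. In male nuclei alone the astrocyte-KO and neuron-KO ratios, -0.89 (-1.98 to 0.09) and -0.54 (-1.41 to 0.30), had intervals that held 0.

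**Figure D1:**
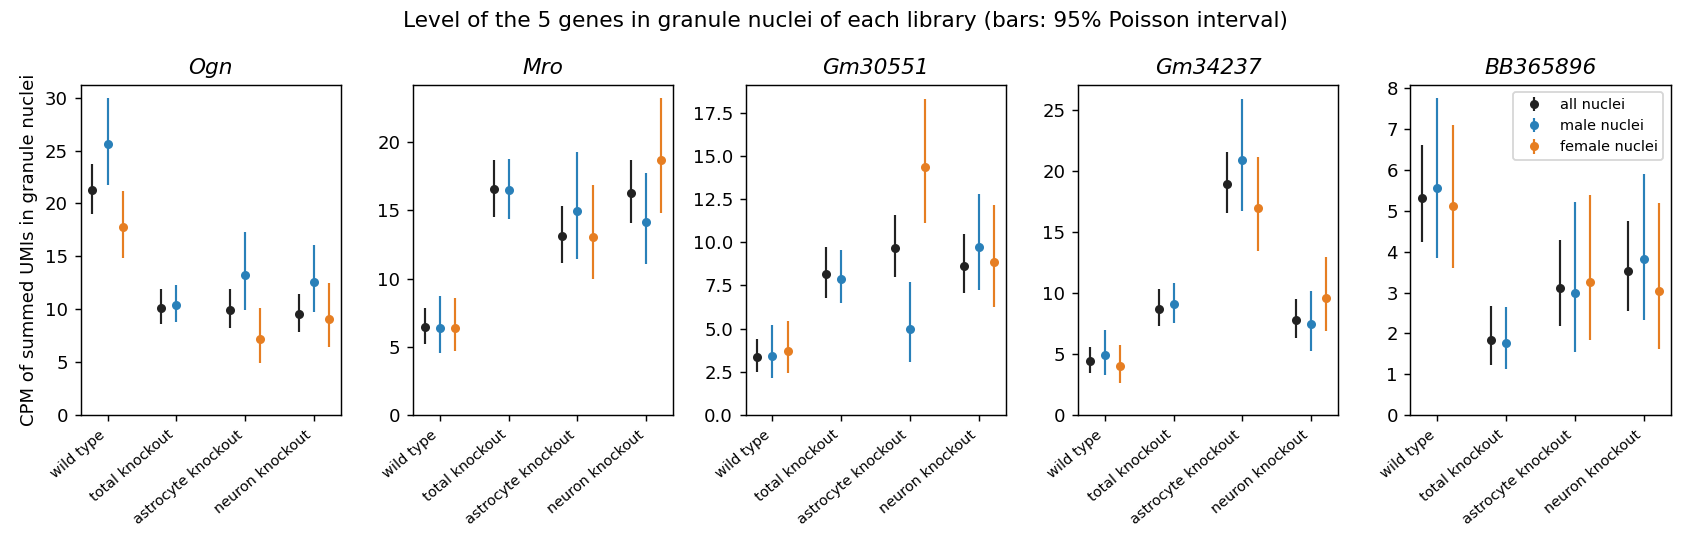
Level of each gene in granule nuclei (vertical axis, CPM of summed UMIs, from 0) in the 4 libraries (horizontal axis), for all nuclei, male nuclei and female nuclei, with 95% Poisson intervals that cover counting error only; the total-KO library has no female point. Wild type is the highest library for Ogn at 21.3 CPM and the lowest for Mro at 6.44 CPM, Gm34237 peaks in the astrocyte-KO library at 19.0 CPM, and the sexes part for Gm30551 in that library.

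Counted at 2-fold from wild type, 4 of the 5 members passed in the total-KO library (2 higher and 2 lower), 4 in the astrocyte-KO (3 higher and 1 lower) and 3 in the neuron-KO (2 higher and 1 lower). Over all 12980 genes with at least 100 granule UMIs, 1.98%, 1.16% and 1.36% passed in the 3 libraries: 0.331%, 0.524% and 0.601% higher, and 1.65%, 0.639% and 0.763% lower. The ratios behind these calls have 1 UMI added to each sum. With it Gm34237 in the total-KO library stood at 0.97, just outside 2-fold, and Mro in the astrocyte-KO library at 1.02, just inside. Since this contrast chose the members, nothing is read from the comparison. Mro and Gm30551 were past 2-fold in all 3 libraries, beside 0.131% of genes that were higher in all 3, and Ogn beside 0.146% that were lower in all 3. For Gm30551 this ended in the total-KO library with doublets kept, at 0.78, or with the same mix of granule clusters in every library, at 0.86, and in the astrocyte-KO library with male nuclei alone, at 0.54. Ogn and Mro also fell short of 2-fold under some alternatives. In the astrocyte-KO library their weakest ratios were -0.85 and 0.90. With male nuclei alone Ogn stood at -0.95 there, and with female nuclei alone at -0.97 in the neuron-KO library. The 3 comparisons share the wild-type library. The median gene stood at -0.06, -0.05 and -0.03, on levels scaled to the summed granule UMIs of each library. With that scaling it cannot show how far a difference of the whole library entered these values, which was not tested.

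The edge of the granule rule is described by nuclei on either side of it. In nuclei just inside it, with Prox1 and exactly 2 of the 5 genes, Ogn stood at 19.0, 11, 7.64 and 14.7 CPM and Gm30551 at 1.58, 6.26, 8.86 and 6.42 CPM. In nuclei just outside, with Prox1 and exactly 1 of the 5, Ogn stood at 15.1, 11.4, 5.96 and 4.47 CPM and Gm30551 at 0 (which allows up to 2.67), 1.75, 1.70 and 0.894 CPM from at most 4 UMIs a library.

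To ask which granule nuclei carry the members, the 7257 nuclei were clustered again without the 5 members, the rule genes and the sex genes. Of 10 clusters, the 4 large ones, numbered 0 to 3, held 1821, 1777, 1577 and 1269 nuclei. Cluster 0 was led by Penk (an opioid precursor), Mylk3, Gm6999, Gpnmb and Arr3. Cluster 1 was led by Gpc3, Spata13 and Rph3al, and cluster 2 by Trhr, Adamts9 and Scn9a. Cluster 3 was led by Afap1l2, Ky, Trib2 and Moxd1. Trhr, listed as a mark of the temporal (ventral) end, was scarce in cluster 0, between 1.61 and 3.10 CPM over the libraries. Nr2f2, another listed temporal gene, stood there at 2.82 to 8.61 CPM and at 1.83 to 5.24 CPM in cluster 3. Gsg1l, listed as a mark of the septal (dorsal) end, stood there at 148 to 208 CPM, against 12.9 to 19.0 CPM in cluster 3. The other septal genes did not share this: Spata13 stood at 41.3 to 56.6 CPM in cluster 0 and 56.5 to 71.0 CPM in cluster 1, and Lct at 37.6 to 55.8 CPM in cluster 0 and 59.7 to 76.9 CPM in cluster 3. The third temporal gene, Grp, stood at 13.8 to 44.8 CPM in cluster 0, above its 2.06 to 3.78 CPM in cluster 3. The lists therefore do not place cluster 0 at one end.

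Gm30551 was carried by cluster 0 among the 4 large clusters, and its level in the small cluster 4 is given further below. Its level there was 16.9 CPM (12.2 to 22.9) in wild type and 27.9 (22.6 to 34.1), 33.1 (26.8 to 40.4) and 32.4 (25.6 to 40.3) in the others, while no library exceeded 2.27 CPM in clusters 1 to 3. Cluster 0 held 82.4%, 76.6%, 83.5% and 76.7% of the granule UMIs of Gm30551 but 20.4%, 27.1%, 27.4% and 24.0% of the granule nuclei. The log2 ratio of cluster 0 to other granule nuclei was 4.58 (3.52 to 5.81), 3.5 (2.89 to 4.15), 3.97 (3.25 to 4.76) and 3.68 (3.00 to 4.40). All 4 intervals lay above 0. The gene was not used in the clustering, but this placement and the ratio that chose the gene come from the same granule UMIs. Cluster 0 was also singled out as its highest large cluster, so some excess was given in advance.

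Over all granule nuclei cluster 0 was a smaller share in wild type than in the other libraries. Among male nuclei alone the shares were 22.1%, 26.1%, 20.5% and 18.5%, so wild type was then below the total-KO library only. Within cluster 0 the log2 ratios of Gm30551 over wild type came to 0.72 (0.18 to 1.28), 0.97 (0.43 to 1.53) and 0.93 (0.38 to 1.51), smaller than over all granule nuclei. With the same mix of clusters given to every library they were 0.86, 1.03 and 1.09. In the astrocyte-KO library cluster 0 made up 37.2% of female and 20.5% of male granule nuclei, and Gm30551 within it stood at 37.5 CPM in female and 24.7 CPM in male nuclei. In wild type those shares were 18.8% and 22.1%, and in the neuron-KO library 29.9% and 18.5%, where Gm30551 in cluster 0 stood at 29.3 CPM in female and 47.1 CPM in male nuclei.

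Among the 4 large clusters, Gm34237 was also highest in cluster 0 in every library, but less exclusively. It stood there at 8.06, 17.6, 24.5 and 16.4 CPM. The log2 ratios of cluster 0 to other granule nuclei were 1.13 (0.29 to 1.91), 1.53 (1.01 to 2.04), 0.51 (0.08 to 0.92) and 1.55 (0.92 to 2.17). The excess of the astrocyte-KO library ran through all 4 large clusters, at 24.5, 22.6, 16 and 18.0 CPM in clusters 0 to 3, against 8.06, 3.03, 2.52 and 5.48 in wild type. The ratios were 1.60 (0.87 to 2.40), 2.90 (1.95 to 3.98), 2.66 (1.63 to 3.83) and 1.72 (0.81 to 2.70). The total-KO and neuron-KO libraries had ratios of 1.13 and 1.02 in cluster 0, and -0.31 (-1.57 to 0.91) and 0.12 (-1.15 to 1.34) in cluster 3, where the intervals held 0. In cluster 1 these libraries had 0.98 (-0.14 to 2.18) and 0.74 (-0.50 to 2.03). In cluster 2 they had 1.41 (0.30 to 2.63) and 1.05 (-0.18 to 2.35).

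Ogn had the reverse placement among the 4 large clusters. Of these it was lowest in cluster 0, at 6.85, 2.05, 2.41 and 3.28 CPM, and highest in cluster 3, at 47.1, 19.7, 16.5 and 21.0 CPM. The log2 ratio of cluster 3 to other granule nuclei was 1.59 (1.26 to 1.92), 1.26 (0.74 to 1.76), 0.93 (0.30 to 1.53) and 1.5 (0.90 to 2.08). Clusters 1 and 2 lay between these levels in each library. The lower level in the KO libraries was present inside cluster 3, at -1.25 (-1.76 to -0.77), -1.52 (-2.12 to -0.95) and -1.16 (-1.72 to -0.64). In cluster 0 they were -1.74 (-3.25 to -0.39), -1.51 (-3.02 to -0.16) and -1.06 (-2.48 to 0.23), and in cluster 1 -1.06 (-1.77 to -0.38), -0.23 (-0.88 to 0.40) and -0.94 (-1.70 to -0.22), so 1 interval in each held 0. In cluster 2 the ratios were -0.52 (-1.02 to -0.03), -0.84 (-1.48 to -0.23) and -0.91 (-1.51 to -0.34). With the same cluster mix in every library the overall ratios were -1.03, -0.97 and -1.05.

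Mro was not concentrated in any of the 4 large clusters. In wild type it stood at 4.03, 7.17, 5.04 and 8.03 CPM in clusters 0 to 3, in the total-KO library at 12.6, 18.2, 18.0 and 16.5, in the astrocyte-KO at 11.4, 12.5, 16.4 and 14.9 and in the neuron-KO at 16.8, 21.4, 14.3 and 17.8. In every one of these 4 clusters all 3 KO libraries lay above wild type, with log2 ratios from 0.80 to 2.06. BB365896 was spread over the 4 large clusters too. Its wild-type levels were 3.63, 6.06, 5.29 and 7.30 CPM, and its ratio in the total-KO library was -2.09 (-3.85 to -0.66) in cluster 1, -1.30 (-2.69 to -0.07) in cluster 2 and -2.18 (-4.19 to -0.60) in cluster 3, but -0.31 (-1.76 to 1.17) in cluster 0.

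**Figure D2:**
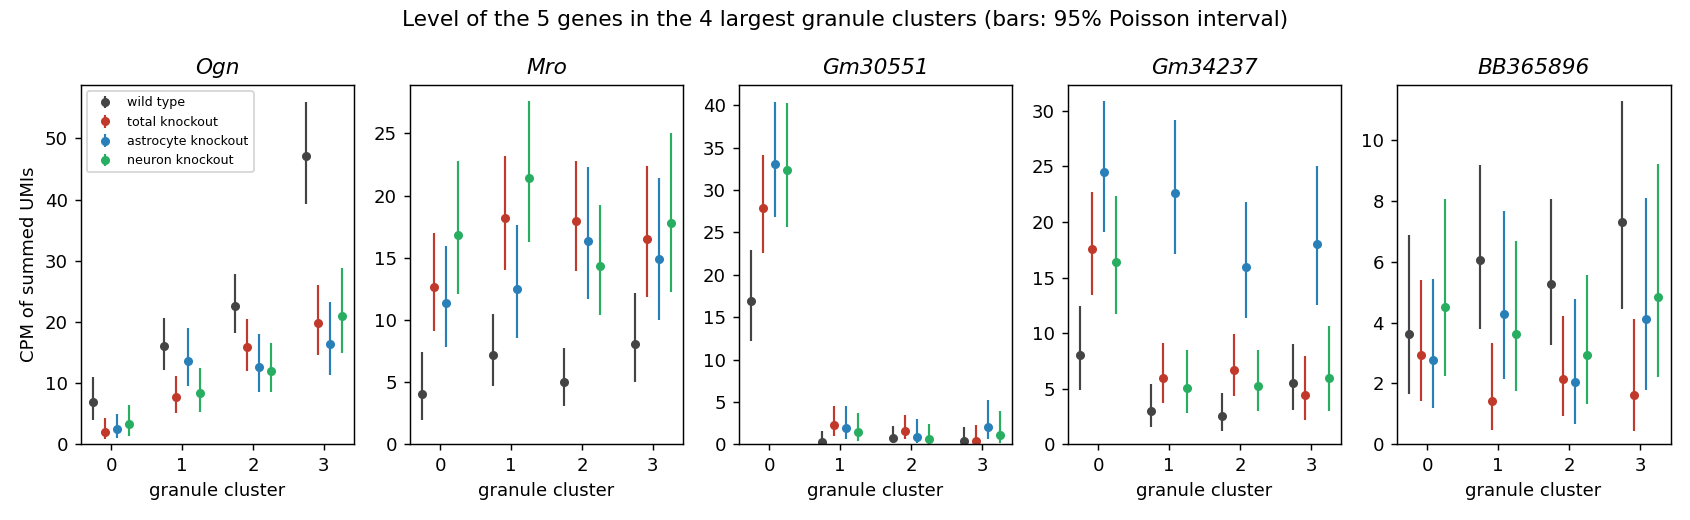
Level of each gene (vertical axis, CPM of summed UMIs, from 0) in granule clusters 0 to 3 (horizontal axis) of the 4 libraries, with 95% Poisson intervals that cover counting error only. Among these 4 clusters only, Gm30551 is near 0 outside cluster 0 in every library. Of the same clusters, Ogn is lowest in cluster 0 and highest in cluster 3 in every library. The astrocyte-KO points of Gm34237 stand above wild type in all 4 clusters.

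The remaining 6 clusters were small. Clusters 6 to 9 were led by genes of other cells: Sv2b and Tshz2, the oligodendrocyte gene Mag, the choroid plexus and vascular genes Ttr and Flt1, and the interneuron genes Sst and Vip. The cluster with Mag made up 3.24% of wild-type granule nuclei and 0.658% to 2.20% of the others. Without these 4 clusters the ratios to wild type were -1.12, -1.10 and -1.13 for Ogn, 1.48, 1.13 and 1.48 for Mro, 1.23, 1.58 and 1.39 for Gm30551, 0.87, 2.12 and 0.76 for Gm34237 and -1.50, -0.84 and -0.53 for BB365896.

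Nuclei with a UMI of a member were compared with those without one in the same library and depth range. Nuclei carrying Gm30551 held more Arr3 (cone arrestin), Crb1 (a cell polarity protein), Chrdl1 (a BMP antagonist), Penk and Pappa (a protease of IGF binding proteins), with a log2 excess of at least 1.61 in each of the 4 libraries. Arr3 stood at 92.8 against 7.18 CPM in wild type. Of 13 activity genes, 5 were higher in all 4 libraries (Bdnf, Inhba, Nptx2, Penk and Sorcs3) and 2 lower (Homer1 and Nr4a3), while 9.32% of 12979 genes were higher and 13.8% lower in all 4. The early response genes Egr1 and Nr4a1 had no common direction. Of 7 further granule identity genes, 4 were lower in all 4 libraries, among them Tdo2 with a mean log2 difference of -1.54 and Calb1 with -0.69, and 1 was higher (Stxbp6).

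Nuclei carrying Ogn showed the opposite lean. Of the same 7 identity genes, 5 were higher in all 4 libraries, with Tdo2 at a mean of 0.69 and Calb1 at 0.46, and 1 was lower. Of the 13 activity genes none was higher and 7 were lower in all 4, among them Penk at -1.31 and Bdnf at -0.69. Over all genes 8.34% were higher and 10.7% lower in all 4. The gene lowest in them by the rule used was Erbb4, an interneuron receptor in this tissue, at 21.0 against 179 CPM in wild type within the depth ranges. Over all wild-type granule nuclei Erbb4 stood at 96.2 CPM. Erbb4 was also a leading gene of the small cluster 9, together with Sst and Vip. The part of that cluster in this contrast was not tested.

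Carriers of Gm34237 held more Rad51ap2, between 0.75 and 1.17 in log2 over the libraries, and more Oprd1, the delta opioid receptor, between 0.63 and 1.28. Rad51ap2 lies on the same chromosome, 363679 bases away. Carriers of BB365896 held more Fam13a, the gene on the opposite strand, between 0.77 and 0.87. Use of strand in counting: not given in the sources used here. Without it, reads of Fam13a and BB365896 cannot be told apart where they overlap, nor those of Ogn and Cenpp, which stood at 92.0 to 106 CPM in granule nuclei. Carriers of Mro held more Bmper, by 0.71 to 1.61. Of the 13 activity genes 0 were higher and 6 lower in them in all 4 libraries, among these Penk with a mean of -0.60. For Mro, 7.19% of all genes were higher and 6.42% lower in all 4.

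Some members met in the same nuclei more often than others. Gm30551 and Gm34237 shared 33 nuclei where 19.3 were given by independence within depth ranges, a ratio of 1.71 (1.18 to 2.40). By library the ratio was above 1 with its interval only in total-KO, at 2.58 (1.24 to 4.74), while astrocyte-KO had 1.62 (0.96 to 2.56), neuron-KO 1.52 (0.49 to 3.55) and wild type no shared nucleus where 1.04 was given. Ogn and Gm30551 shared 12 where 18.8 were given, 0.638 (0.330 to 1.12), an interval that held 1. Ogn and BB365896 shared 30 against 20.0, a ratio of 1.5 (1.01 to 2.14), but the interval held 1 in each library alone. Summed over the 4 libraries, the intervals of the other 7 of the 10 pairs held 1. In wild type alone Ogn and Gm34237 shared 16 nuclei against 8.70, a ratio of 1.84 (1.05 to 2.99), while each KO library had an interval that held 1.

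Among 31 cell classes Ogn and Gm30551 were close to granule genes, and the other members were not. Granule nuclei, by the rule or by cluster, held 86.4%, 87.0%, 77.7% and 81.4% of all Ogn UMIs and 84.8%, 92.1%, 86.1% and 89.0% of all Gm30551 UMIs, beside 16.4% to 20.8% of all UMIs of any gene. For Mro the shares were 30.7%, 28.6%, 34.1% and 37.5%. For Gm34237 they were 10.7%, 16.6%, 24.0% and 16.7%, and for BB365896 41.9%, 20.8%, 17.7% and 24.7%.

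Outside granule nuclei Ogn was highest in endothelial and mural nuclei, at 132 CPM (18 UMIs) in wild type and 52.4 CPM (9 UMIs) in the total-KO library, a log2 ratio of -1.33 (-2.67 to -0.10). The only other class outside the granule classes with at least 10 UMIs in that comparison stood at 0.11. In the astrocyte-KO library 2 such classes stood at -0.30 and 0.82, and in the neuron-KO library 1 stood at 0.39. The intervals of these further ratios held 0. Ogn stood at 31.7 CPM in choroid plexus nuclei of wild type, which alone held at least 50 of them. The sum of 7 choroid plexus genes in granule nuclei was higher in wild type too, at 59.7 CPM against 35.3, 35.8 and 17.9. Ttr made up 40.0, 15.5, 14.9 and 0.419 CPM of these sums and Kl 14.1, 15.7, 16.1 and 13.5 CPM, with Otx2 at 0 in all 4 libraries. The sum of 10 measured meningeal fibroblast genes was 17.7, 16.8, 18.6 and 15.7 CPM. In cluster 3, where Ogn reached 47.1 CPM in wild type, Ttr had 0 UMIs in that library, while it had 174 in cluster 3 of the astrocyte-KO library. Whether RNA of choroid plexus, vascular or meningeal cells had a part in the granule levels of Ogn was not tested. Gm30551 was below 1 CPM in CA1 nuclei of every library, and no other class outside the granule classes reached 10 of its UMIs over a pair of libraries. In CA1 the astrocyte-KO and neuron-KO ratios were 0.35 (-1.03 to 1.83) and -0.08 (-1.69 to 1.53), and the total-KO ratio was -3.28 (-8.75 to -0.38), from 1 UMI against 8, opposite in sign to the granule ratio.

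Mro had its highest levels in glia. It stood at 59.2 CPM in wild-type astrocytes (18 UMIs in 106 nuclei), 125 in the total-KO and 60.2 in the neuron-KO library, and at 40.1 and 83.7 CPM in oligodendrocyte precursors of wild type and the total-KO library. In mature oligodendrocytes it had 3 UMIs or fewer in each library with 50 such nuclei. Its higher level was not limited to granule nuclei. With at least 10 UMIs over both libraries, outside the granule classes, the total-KO ratio to wild type was above 0 in 12 of 14 classes and 2 more had no wild-type UMI, and 8 intervals lay above 0. In the astrocyte-KO library 9 of 11 were above 0 (4 intervals), and in the neuron-KO 10 of 10 (4 intervals). No interval lay below 0. In subicular or cortical nuclei the ratios were 0.86 (0.47 to 1.27), 1.36 (0.94 to 1.79) and 0.74 (0.31 to 1.18).

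The astrocyte-KO excess of Gm34237 also reached other neurons. In CA1 nuclei it stood at 7.68, 8.41, 15.9 and 6.23 CPM, and the astrocyte-KO ratio was 1.05 (0.70 to 1.40) while the others were 0.13 (-0.26 to 0.52) and -0.30 (-0.74 to 0.13). In CA2/CA3 nuclei the astrocyte-KO ratio was 0.50 (0.04 to 0.97) and in Sst interneurons 2.06 (0.74 to 3.64). Of 13 classes, 6 had intervals above 0 in this library, 1 of 14 in the total-KO and 0 of 14 in the neuron-KO. Over all nuclei outside the rule the neuron-KO library was below wild type, at -0.28 (-0.45 to -0.11). Its highest level was in an unnamed cluster led by Gm765, Gm20752 and Rorb (cluster 9), at 24.1, 33.1, 39.9 and 20.7 CPM. It was at 0 UMIs in astrocytes of the 3 libraries that held at least 50 of them, which allows up to 9.86, 18.7 and 18.1 CPM in wild type, total-KO and neuron-KO.

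BB365896 was low everywhere, with the highest mean over libraries at 5.19 CPM in astrocytes from 3 UMIs and 4.76 CPM in Pvalb interneurons from 60. The total-KO ratio was below 0 in all 7 classes with enough UMIs, from -0.86 to -0.29, and each interval held 0. In the astrocyte-KO library it was above 0 in 8 of 10 classes, with 1 interval above 0, and in the neuron-KO library above 0 in 4 and below in 3 of 7, with no interval off 0. Over all nuclei outside the rule together it was -0.80 (-1.12 to -0.47) in the total-KO library, 0.25 (-0.06 to 0.56) in the astrocyte-KO and -0.11 (-0.44 to 0.21) in the neuron-KO. In nuclei of granule clusters that missed the rule it stood at 9.33, 1.69, 1.33 and 2.08 CPM, from 22, 10, 4 and 5 UMIs.

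**Figure D3:**
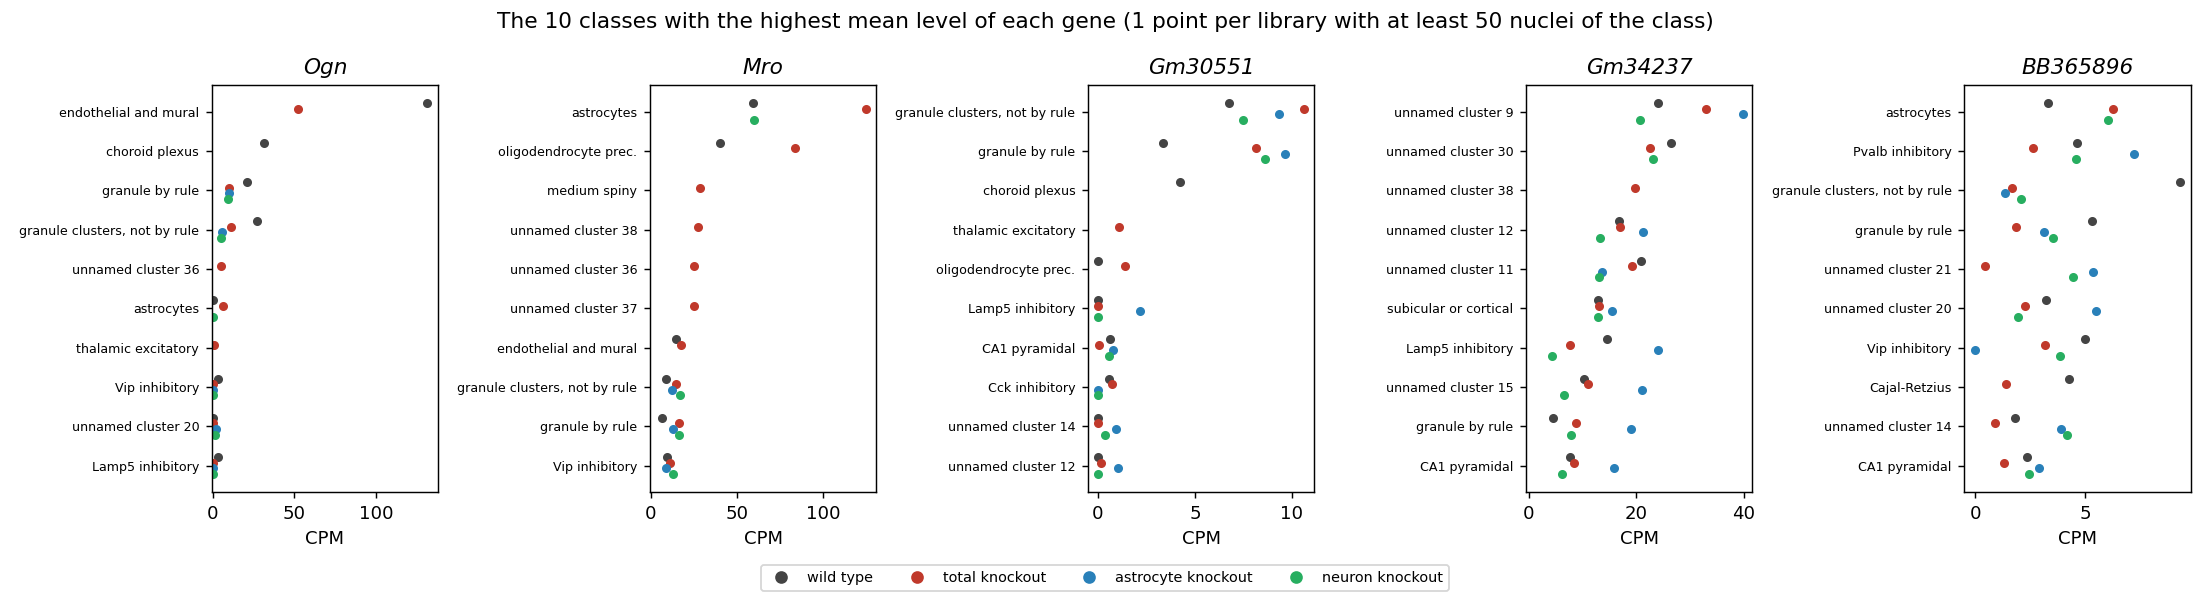
Level of each gene (horizontal axis, CPM of summed UMIs) in the 10 classes with its highest mean over libraries (vertical axis), with 1 point for each library that holds at least 50 nuclei of the class. Gm30551 falls off after the granule rows, Ogn has its highest point in wild-type endothelial and mural nuclei at 132 CPM, and Mro is highest in astrocytes and oligodendrocyte precursors.

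**Figure D4:**
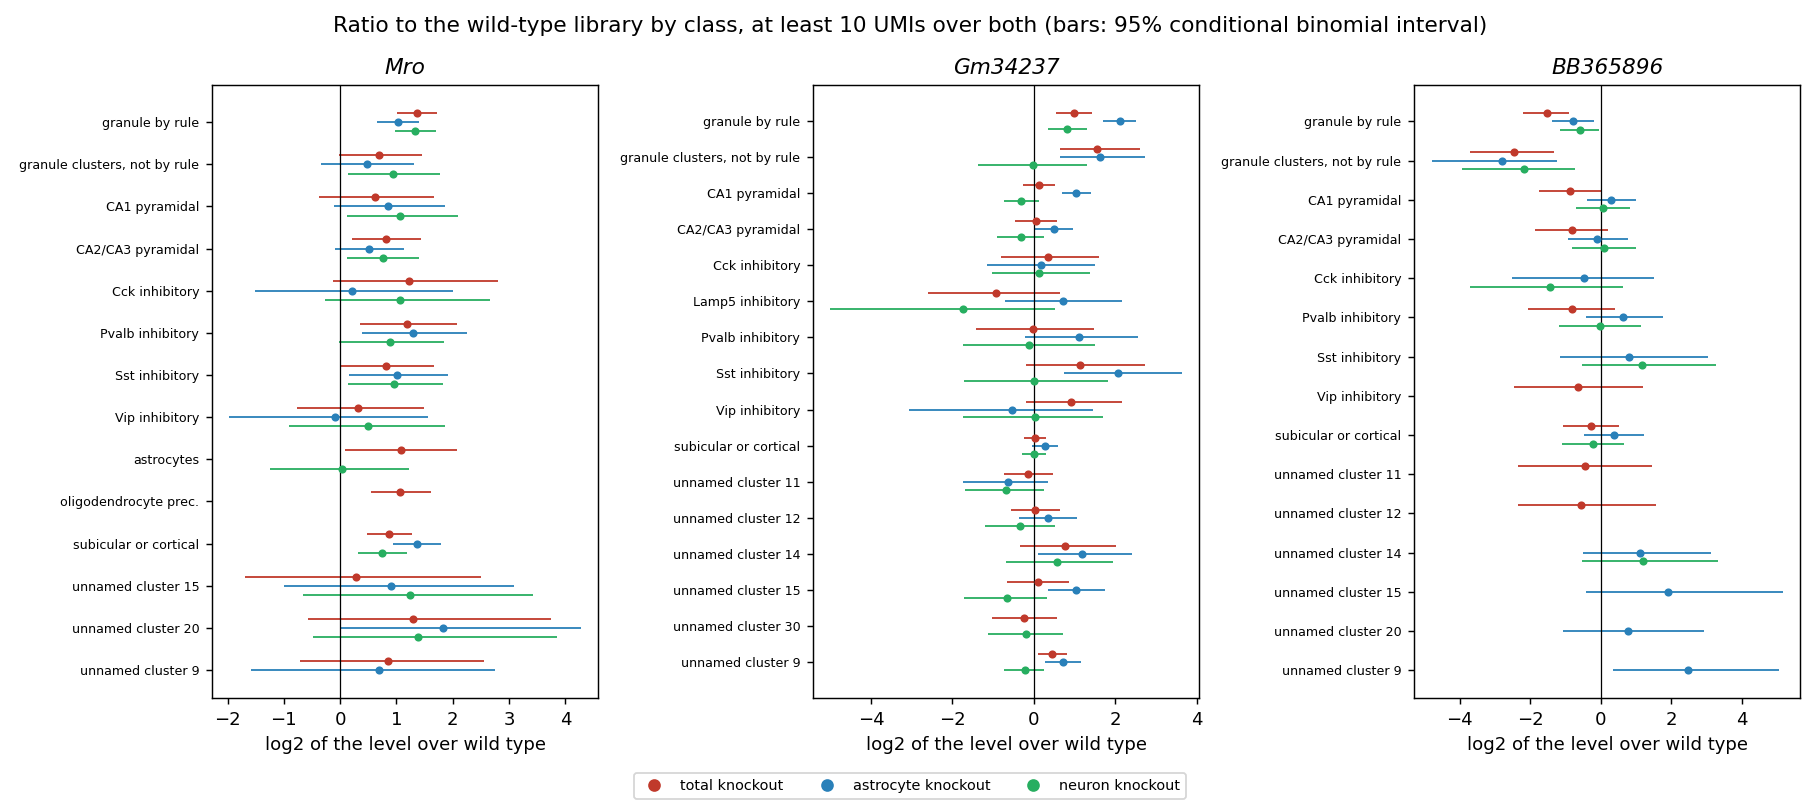
Log2 of the level over wild type (horizontal axis) by class (vertical axis) in the 3 KO libraries for Mro, Gm34237 and BB365896, with 95% conditional binomial intervals for counting error only and at least 10 UMIs over both libraries. Most Mro points lie to the right of 0, and for Gm34237 the astrocyte-KO points lead in granule, CA1 and Sst nuclei.

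The genes around the members were read in the same granule nuclei. Mapk4, an atypical MAP kinase 47153 bases from Mro on the opposite strand, stood at 109, 179, 195 and 164 CPM, with ratios of 0.71 (0.63 to 0.80), 0.84 (0.75 to 0.93) and 0.59 (0.50 to 0.69). It was also among the 10 leading genes of cluster 0, where Mro differed from other granule nuclei by -0.78 to 0.06 over the libraries. Me2, on the other side of Mro, had ratios of 0.39 (0.19 to 0.59), 0.21 (-0.01 to 0.43) and 0.16 (-0.06 to 0.39). Cenpp, a centromere protein gene whose span contains Ogn, had -0.15, -0.20 and -0.19, with intervals below 0 that did not reach those of Ogn. Omd, the neighbouring proteoglycan gene, had -0.65 (-1.39 to 0.07), -0.65 (-1.45 to 0.12) and -0.30 (-1.04 to 0.41) from 22 to 44 UMIs a library.

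The neighbours of Gm30551 did not share its ratios. Srek1, a splicing factor gene, had 0.01, 0.01 and 0.00, and Mast4 had -0.07, 0.19 and 0.03. Gm47833, the nearer neighbour of Gm34237, had 0.42 (-0.75 to 1.63), 0.58 (-0.64 to 1.82) and 1.09 (-0.01 to 2.25) from 12 to 20 UMIs a library. Fam49a, on the other side, had 0.25, -0.02 and 0.20. Fam13a, on the other strand of BB365896, stood at 114, 94.0, 67.4 and 87.6 CPM, with ratios of -0.28 (-0.38 to -0.17), -0.76 (-0.88 to -0.63) and -0.38 (-0.49 to -0.27). Its lowest library was the astrocyte-KO one and that of BB365896 the total-KO one. Herc3, on the other side, had -0.21, -0.31 and -0.22.

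**Figure D5:**
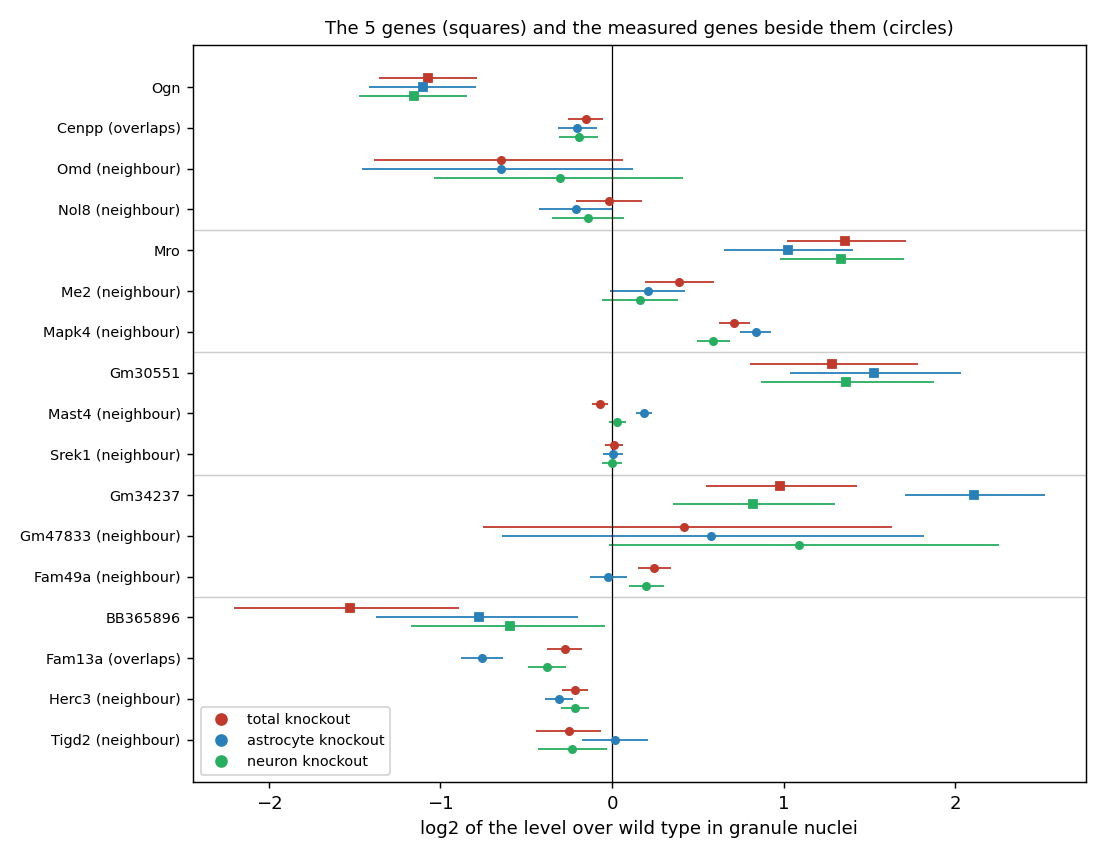
Log2 of the level over wild type in granule nuclei (horizontal axis) for the 5 genes (squares) and for the measured genes that overlap or neighbour them (circles), in the 3 KO libraries, with 95% conditional binomial intervals for counting error only. Mapk4 beside Mro lies at 0.59 to 0.84, Srek1 beside Gm30551 lies at 0.00 to 0.01, and Fam13a lies below 0 together with BB365896.

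Relatives of the members and the granule lists were counted at the same 2-fold, beside the 0.331%, 0.524% and 0.601% of all genes that were higher and the 1.65%, 0.639% and 0.763% that were lower. Of 5 small leucine-rich proteoglycan genes with at least 100 UMIs, Ogn included, 1, 0 and 1 were past 2-fold higher (Dcn, at 1.48 and 1.19, from 19 wild-type UMIs) and 1, 1 and 1 lower (Ogn), with medians of -0.18, -0.28 and -0.28. The other relatives varied. Ecm2 stood at -0.17 (-0.38 to 0.03), -0.28 (-0.51 to -0.06) and -0.57 (-0.81 to -0.33). Aspn, too scarce to be counted, stood at -0.82 (-1.65 to -0.03), -1.02 (-1.99 to -0.13) and -1.03 (-1.99 to -0.14), and Lum at -0.79, -0.89 and -1.03 with intervals that held 0. Podn, equally scarce, stood at 0.68, 1.03 and -0.39, and its intervals held 0. Of 5 maestro family genes, Mro included, Mro alone was past 2-fold in each library, with medians of 0.28, 0.21 and 0.16. Of 3 septal and 3 temporal genes none was past 2-fold. Of 5 immature granule genes 0, 0 and 1 were lower (Igfbpl1, at -1.77 in the neuron-KO library), with medians of -0.06, -0.33 and -0.20. Of 7 further granule identity genes none passed, with medians of -0.06, -0.17 and -0.14. Of the 5 that were higher in Ogn carriers, Calb1 stood at -0.35, -0.70 and -0.50, Tdo2 at -0.51, -0.94 and -0.61 and C1ql3 at -0.18, -0.36 and -0.22, with every interval below 0. Rfx3 stood at -0.06, 0.08 and -0.14 and Dock10 at -0.01, -0.06 and -0.04. The part of these in the Ogn ratio was not tested. Of 13 activity genes 1, 2 and 3 were higher and 0, 1 and 0 lower. Penk, which led cluster 0, stood at 5.58, 9.94, 20.3 and 9.81 CPM.

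Likeness was measured as Pearson's r of log2(CPM + 1) over 93 combinations of class and library, from 31 classes, among 18221 genes. It is a description, since the points share libraries and depth. The genes most like Ogn were Mfap4 (r = 0.814), Ppic (0.786) and 4930529K09Rik (0.780), those most like Mro were Svil (0.686), Axl (0.607) and Hdac8 (0.603), and those most like Gm34237 were Rad51ap2 (0.790), Ccsap (0.744) and Vmn2r85 (0.733). For Gm30551 they were Olfr541 (0.861), Il27ra and Olfr45 (both 0.860), and for BB365896 Gm30093 (0.520), Gm28750 (0.510) and Gm48747 (0.503). In granule nuclei some of these lay on the same side of wild type as their member. Ppic stood at -1.02 (-1.67 to -0.40), -0.58 (-1.22 to 0.03) and -0.51 (-1.13 to 0.09), and Gm48747 at -0.87, -0.41 and -0.33 with intervals below 0. Rad51ap2 stood at 0.26 (0.04 to 0.47), 0.37 (0.14 to 0.59) and -0.07 (-0.31 to 0.17). Others did not: Il27ra stood at -0.04, -0.08 and -0.27 with intervals that held 0.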

How the data were processed

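The 4 libraries hold RNA of hippocampal nuclei. The authors deposited whole-number UMI counts per gene and barcode, and Cell Ranger ARC 2.0.0 and the build mm10 are named in the submitters' processing notes, without their role. Strand: not given in the sources used here. Genes listed in all 4 libraries (20211) were joined. Nuclei with at least 500 genes and at most 5% mitochondrial UMIs were kept, and doublets called by Scrublet within each library (1.72% to 23.5%) were removed. Library totals ran from 81623644 to 193307038 UMIs. Clusters came from scanpy 1.11.5 and leidenalg 0.10.2 (2000 variable genes, 30 components, 15 neighbours, resolution 1) and were named from marker lists, needing 3 markers. Names mean resemblance on these markers. Granule nuclei were clustered again at resolution 0.5, centred within each library. A class needed 50 nuclei in a library.

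Levels are CPM of summed UMIs, computed here. They carry exact Poisson intervals, ratios carry conditional binomial intervals and shares Clopper-Pearson intervals. Limits beside a value of 0 are those of 3 counts. No test across libraries was possible with 1 library each. Ratios across all genes used genes with at least 100 UMIs. Carriers were compared within 5 depth ranges per library. Nuclei were called female or male by Xist and Y-linked genes. The script was tested on simulated counts. Alternatives were the granule definition, doublets, sex, depth, scaling, filters, fold and clustering. Named genes were the members, their neighbours, the genes most like them, the 5 highest in their carriers and the fullest genes of each list, and cluster leaders. The members, lists and rules were chosen with earlier results of these data known. Of the joined symbols, 98.1% were found in GENCODE M21.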

Additional observations from a re-analysis of the deposited data

Results flagged for a closer look

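Gm34237 ran against its granule direction in a further cell class. In the unnamed cluster 11, led by Ccdc192, Teddm3 and Cxcl14, the log2 ratios were -0.13 (-0.74 to 0.48) for total-KO, -0.63 (-1.73 to 0.35) for astrocyte-KO and -0.68 (-1.70 to 0.24) for neuron-KO, while the granule ratios were 0.98, 2.11 and 0.82. All 3 libraries lay below wild type in one class and above it in the other, but each interval in cluster 11 held 0, and the difference between the classes was not tested. The levels there were 20.9 CPM in wild type from 43 UMIs and 19.1, 13.5 and 13.1 CPM in the others from 54, 11 and 13 UMIs.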

How the results depend on the processing

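Of 175 recomputed granule ratios, 169 kept their direction within the counting interval, 5 moved and 1 reversed. With doublets kept the total-KO ratio of Gm30551 was 0.78, in male nuclei its astrocyte-KO ratio was 0.54, and with the same cluster mix, an alternative added after seeing the data, it was 1.03. Thinned to 3000 UMIs, Mro had 1.77 in the total-KO and 1.96 in the neuron-KO library, and BB365896 had 0.14 in the neuron-KO, which reversed it; the cause was not tested. Thinned to 1000 UMIs, the log2 ratio of the share of positive nuclei was 0.96, 0.19 and 0.79 for Mro, and in the total-KO library 1.72 for Gm34237 and -2.86 for BB365896; fewer UMIs entered. With a minimum of 20 UMIs 911, 772 and 795 genes were past 2-fold, against 257, 151 and 177, and 1005, 944 and 964 passed 1.5-fold, while 4, 4 and 3 members passed at 2-fold under either minimum. The excess of BB365896 in its highest granule cluster was 0.46, and 0.66 both at resolution 1 and without centring. That cluster was picked in each setting as the highest, so an excess was given in advance and nothing is read from it. Over the libraries the values ran from -0.23 to 0.58, from -0.84 to 0.98 and from 0.15 to 1.12. Female nuclei alone gave no total-KO value, since that library held 1 female granule nucleus. No paired analysis was possible because each genotype has 1 library. Low counts limit BB365896, with 28 to 81 granule UMIs a library, and also Gm30551 and Gm34237, with 51 and 67 in wild type.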

Other observations

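Clusters 4 and 5, small granule clusters, held members unevenly. Cluster 4, led by Cdh23, Cartpt (a peptide precursor), Pcsk1 (a prohormone convertase) and Sorcs3, had 0 Ogn UMIs in 79 nuclei of the total-KO library (which allows up to 7.23 CPM) and 3 in 58 of wild type, and 0 Mro UMIs in wild type (up to 5.54 CPM) against 5 in the total-KO library. Gm30551 stood in cluster 4 at 1.85 CPM in wild type and 7.23 CPM in the total-KO library, from 1 and 3 UMIs. The neuron-KO library had 43 nuclei of this cluster, under the minimum of 50. Its Gm30551 level was 32.9 CPM in 23 male nuclei (7 UMIs) and 24.2 CPM in 13 female nuclei (3 UMIs). In the astrocyte-KO library Gm30551 had 0 UMIs in 16 male and 1 UMI in 17 female nuclei of cluster 4. Cluster 5, led by Gm29683, B130024G19Rik, Scn7a and Il33, held Mro at 37.2 CPM (22.0 to 58.7) from 18 UMIs in the total-KO library, its highest level there among granule clusters with at least 50 nuclei, and at 12 CPM (4.82 to 24.7) from 7 UMIs in wild type. Ogn stood there at 22.3 CPM in wild type and 4.13 CPM in the total-KO library.

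Medium spiny nuclei reached 50 in the total-KO library alone, where 737 nuclei held Mro at 28.7 CPM from 108 UMIs and no Ogn or Gm30551 UMI, which allows up to 0.797 CPM of each.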
